A study of Mus musculus with 51 samples.

Results

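The RNA sensors RIG-I, MDA5, LGP2, TLR3, PKR and ZBP1, the adaptor MAVS, the kinase TBK1 and the RNA editor ADAR were followed through every tumor and cell group of a mouse bulk RNA-seq study of UBA1, the enzyme that activates ubiquitin. The 9 genes were taken by name from the 40077 genes of the deposited table, in which RIG-I is written as Ddx58 and MDA5 and LGP2 are Ifih1 and Dhx58. All 9 were found, each at 1 gene. The table covers 51 libraries in 16 groups, 35 from tumors and 16 from cultured cells. Tumors were grown under the skin of syngeneic mice aged 6 to 8 weeks, from the prostate cancer line Myc-CaP in male FVB mice and from the melanoma line B16-BL6 in female C57BL/6 mice. Both flanks were used per the study's methods, so that some tumors may share a mouse.

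The sgUba1 lines are sublines grown from single cells after lentiCRISPR v2 delivery of a guide RNA against Uba1 and puromycin selection, and they keep part of their Uba1. Their controls carry a nontargeting guide. There were 3 control and 4 sgUba1 tumors in B16-BL6 and 3 control and 7 sgUba1 tumors in Myc-CaP, and the labels do not name the guide or the subline of a tumor. A further 4 Myc-CaP tumors overexpressed Uba1 from a lentiviral CMV promoter (Uba1 OE) and 3 carried the empty vector, after blasticidin selection. Unmodified Myc-CaP tumors came from mice given TAK-243, a small-molecule inhibitor of UBA1, at 25 mg/kg into a vein 2 times a week (5 tumors) or vehicle (6 tumors). In culture, control sgRNA and sgUba1 Myc-CaP cells were each sequenced with PBS or with IFN-γ at 1 ng/mL for 18 hours, and unmodified Myc-CaP cells were sequenced untreated, with 50 nM TAK-243 for 18 hours, with IFN-γ and with both, with 2 libraries in each of these 8 groups. The labels do not say whether the 2 libraries of a cell group are separate cultures, so p-values there measure the spread between libraries, which may be technical.

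RIG-I, MDA5 and LGP2 are related helicases of the cytosol. RIG-I binds short double-stranded RNA with an uncapped end, MDA5 assembles on long double-stranded RNA, and LGP2 binds RNA but lacks the signaling domain of the others and tunes their activity. RIG-I and MDA5 signal through MAVS on the mitochondrial surface, which recruits the kinases TBK1 and IKKε to activate IRF3 and the production of interferon. TLR3 detects double-stranded RNA in endosomes. PKR, the product of Eif2ak2, halts translation when it binds double-stranded RNA, ZBP1 detects Z-form nucleic acid and can start necroptosis, and ADAR edits double-stranded RNA and keeps a cell's own RNA from triggering these sensors. Ubiquitin chains added by ligases such as TRIM25 and RNF135 take part in RIG-I activation, and several of the sensors are themselves induced by interferon.

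In GENCODE M21 on GRCm38 the genes are protein-coding and lie on 7 chromosomes. Ddx58 spans chr4:40203773-40239828 on the minus strand, Ifih1 chr2:62595798-62646255 on the minus strand and Dhx58 chr11:100694884-100704271 on the minus strand. Mavs spans chr2:131234063-131248025 on the plus strand, Tlr3 chr8:45395665-45411080 on the minus strand and Tbk1 chr10:121546455-121586787 on the minus strand. Eif2ak2 spans chr17:78852564-78882573 on the minus strand, Zbp1 chr2:173206612-173218923 on the minus strand and Adar chr3:89715022-89753446 on the plus strand. Adar overlaps Chrnb2, Dhx58 overlaps Dhx58os, Tlr3 overlaps Gm45542 and Eif2ak2 overlaps Gm26637 and n-R5s29, each on the opposite strand. Whether counting used the strand is not given in the sources used here, so reads from such partners could not be told apart, and the gene-level counts do not separate the constitutive and the interferon-induced forms of ADAR.

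Promoter windows of 300 bases, from 250 before to 50 after the start of a gene, were read from RefSeq on GRCm38.p6 for 7 of the 9 genes, in 9 windows, and none was read for Dhx58 and Zbp1. Each was searched on both strands for GAAA and GAAA with 2 bases of any kind between them, letters of the interferon-stimulated response element (ISRE), and for TTC and GAA with 3 bases of any kind between them, letters of the gamma-activated site (GAS). ISRE letters stood in the windows of Ddx58, Ifih1 and Eif2ak2, and in 3.44% of all 32851 windows of that length. GAS letters stood in the windows of Eif2ak2 and in 1 of the 3 of Adar, and in 8.3% of all windows. The 3 windows with ISRE letters are shown, each read along its gene, because they carry the interferon-response letters, followed by the Adar window with GAS letters and the Tlr3 window, in which neither motif was found. The capitals mark the motif letters, on either strand.
Ddx58, chr4:40239776-40240075, minus strand: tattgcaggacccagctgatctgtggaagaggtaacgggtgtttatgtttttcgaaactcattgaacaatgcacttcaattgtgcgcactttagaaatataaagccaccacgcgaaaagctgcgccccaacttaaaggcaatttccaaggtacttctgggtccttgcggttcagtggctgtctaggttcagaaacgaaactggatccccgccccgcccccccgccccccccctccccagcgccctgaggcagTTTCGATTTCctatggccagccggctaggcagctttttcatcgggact
Ifih1, chr2:62646206-62646505, minus strand: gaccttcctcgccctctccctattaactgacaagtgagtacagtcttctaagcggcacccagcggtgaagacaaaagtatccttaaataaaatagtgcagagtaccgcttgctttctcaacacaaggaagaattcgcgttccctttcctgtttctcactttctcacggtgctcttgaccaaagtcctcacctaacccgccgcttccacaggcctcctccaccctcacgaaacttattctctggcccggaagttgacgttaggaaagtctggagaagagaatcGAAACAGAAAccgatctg
Eif2ak2, chr17:78882523-78882822, minus strand: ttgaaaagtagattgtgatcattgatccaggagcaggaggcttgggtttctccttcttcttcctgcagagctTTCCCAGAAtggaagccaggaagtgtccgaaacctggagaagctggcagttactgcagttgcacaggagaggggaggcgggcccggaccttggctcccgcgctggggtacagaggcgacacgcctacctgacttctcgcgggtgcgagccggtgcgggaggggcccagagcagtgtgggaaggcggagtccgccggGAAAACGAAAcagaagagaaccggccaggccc
Adar, chr3:89730468-89730767, plus strand: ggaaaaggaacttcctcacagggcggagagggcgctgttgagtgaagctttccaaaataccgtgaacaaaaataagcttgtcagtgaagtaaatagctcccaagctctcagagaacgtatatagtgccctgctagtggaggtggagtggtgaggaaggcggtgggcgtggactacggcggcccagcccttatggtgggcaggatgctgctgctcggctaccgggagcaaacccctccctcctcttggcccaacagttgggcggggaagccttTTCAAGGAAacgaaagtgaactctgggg
Tlr3, chr8:45410331-45410630, minus strand: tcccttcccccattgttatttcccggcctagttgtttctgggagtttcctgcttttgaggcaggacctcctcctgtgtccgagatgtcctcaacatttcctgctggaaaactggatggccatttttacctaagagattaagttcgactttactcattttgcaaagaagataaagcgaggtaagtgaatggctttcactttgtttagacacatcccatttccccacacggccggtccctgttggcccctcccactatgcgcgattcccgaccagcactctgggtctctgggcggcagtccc
The ISRE letters begin at base 3 of the transcribed part of the window in Ddx58, at base 33 in Ifih1 and at base 19 in Eif2ak2, while the GAS letters of Eif2ak2 end 170 bases before the start. Such matches describe the letters and do not show that a factor binds there. The search took only the stated letters and spacing, so a window without a match may still hold a variant of either element.

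Depth and labels were checked first. Libraries held 8652097 to 35693203 estimated counts in tumors and 12860987 to 38032395 in cells. Uba1, in CPM (counts scaled to library size with TMM factors), was 409.5, 455 and 414 in the B16-BL6 controls and 208, 220, 228 and 247 in the sgUba1 tumors, and 278 to 310.4 in the empty-vector tumors against 631 to 747 with OE. In Myc-CaP it was 320 to 337 in the 3 control tumors, but the 7 tumors labelled sgUba1 held 197, 202, 211, 373, 361, 368 and 383, so that 4 of them stood above every control and their label was not borne out at the RNA level. Log2 fold changes of the followed genes in these tumors are therefore given with and without those 4. Counts of genes, list medians and marker sums include them. The paper shows partial depletion in its lines by immunoblot and Sanger sequencing, with independent guides. UBA1 protein is not part of these data, so whether those 4 tumors were depleted of it was not tested. In cells Uba1 RNA was 533 and 525.6 CPM in controls and 295 and 283 CPM with sgUba1. Melanocyte markers summed to 10270 TPM or more in every B16-BL6 tumor, and of the epithelial markers Epcam stayed under 1 TPM in all Myc-CaP tumors and cells and Cdh1 in all cells.

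The genes differed in where they were expressed. On the TPM scale, which corrects for length and so allows comparison between genes, the tumor medians were 28.1 for Tbk1, 27.2 for Adar and 26.4 for Mavs, followed by 19.0 for Eif2ak2, 14.4 for Tlr3 and 10.6 for Ddx58. Zbp1 at 4.25, Dhx58 at 2.94 and Ifih1 at 1.78 TPM came last. The ranges over the 35 tumors overlapped between neighbours in this order, for example 23.8 to 37.1 TPM for Tbk1, 16.6 to 37.5 for Adar and 19.6 to 35.5 for Mavs. Tbk1 and Mavs varied little between tumors, from 47.5 to 64.5 CPM and from 38.7 to 65.2 CPM, whereas Ifih1 ran from 1.69 to 24.4 CPM and Zbp1 from 0.747 to 10.96 CPM.

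**Figure D1:**
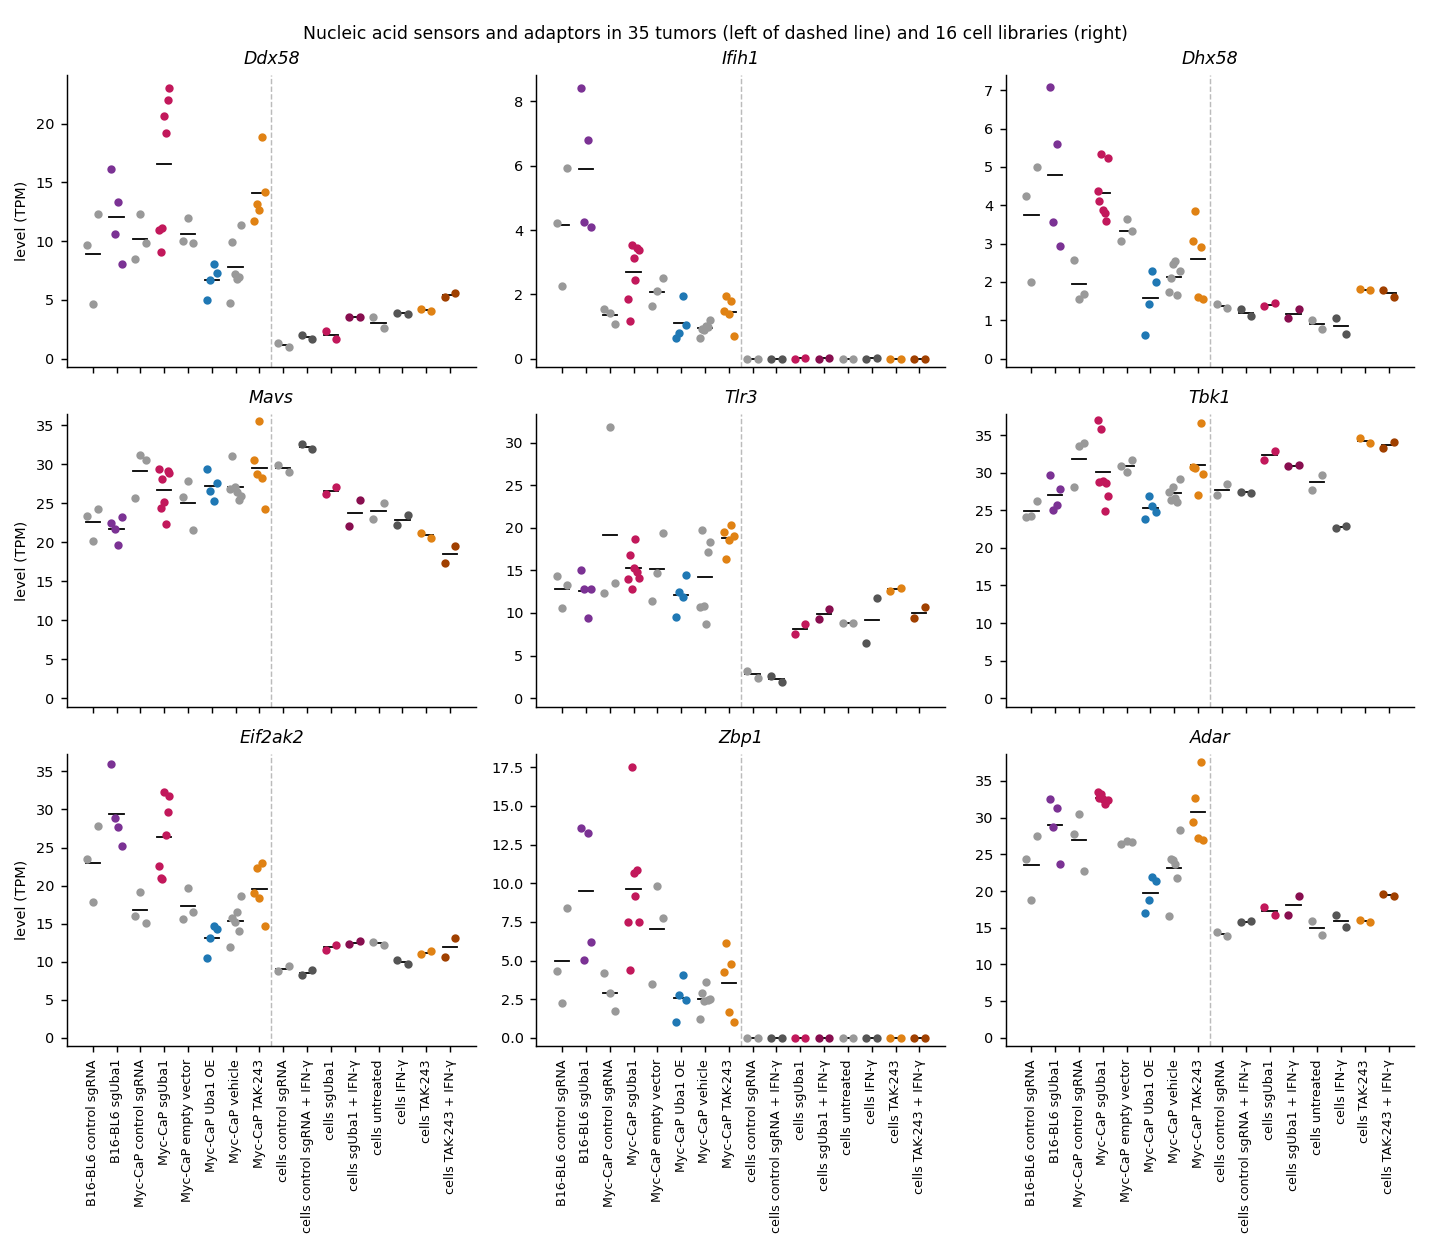
Level in TPM (vertical axes, linear) of the 9 genes in each of the 51 libraries (points) by group (horizontal axis), with the group mean as a line. Ifih1 and Zbp1 lie at or near 0 in all 16 cell libraries and above 0 in all 35 tumors, whereas Tbk1 and Mavs cover similar ranges in both.

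Ifih1 and Zbp1 marked the difference between tumors and cultured Myc-CaP cells. Zbp1 had 0 counts in 16 of 16 cell libraries, and Ifih1 had 0 counts in 13 and at most 2 counts in the other 3, also after IFN-γ. A count of 0 allows up to 3 counts, which corresponded to 0.0822 to 0.241 CPM in these libraries, a limit that covers counting error only. Both genes were found in every tumor, with at least 17 counts for Ifih1 and at least 8 for Zbp1. The other 7 genes were detected in every cell library, with medians of 30.3 TPM for Tbk1, 24.2 for Mavs, 16.01 for Adar, 11.2 for Eif2ak2, 8.82 for Tlr3, 3.52 for Ddx58 and 1.3 for Dhx58. Tumors also held cells of the host: 14 myeloid markers summed to 148 to 1007 TPM in Myc-CaP tumors and 140 to 308 TPM in B16-BL6 tumors, while 12 of the 14 stayed under 1 TPM in all cell libraries, Ptprc, Adgre1 and Itgam among them. In such bulk samples, fewer cells of a type and less RNA per cell cannot be told apart, and the part of host cells in the tumor levels was not tested.

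The levels in control tumors of both models are set side by side. Ifih1 was 7.57 to 18.1 CPM in the 3 B16-BL6 controls and 1.88 to 6.67 CPM in the 12 Myc-CaP controls of all experiments, and Eif2ak2 was 54.4 to 80.1 CPM against 34.1 to 53.9 CPM. The ranges of the other 7 genes overlapped, for example Ddx58 at 12.7 to 30.8 CPM against 12.1 to 29.1 CPM, Dhx58 at 3.27 to 7.68 CPM against 2.22 to 5.32 CPM and Zbp1 at 1.36 to 5.49 CPM against 1.03 to 7.09 CPM. These controls come from separate experiments with different depths and were not tested against each other.

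The first comparison asked whether depletion of Uba1 changed the sensors in B16-BL6 tumors. None of the 9 genes passed an adjusted p of 0.05 (edgeR, quasi-likelihood, Benjamini-Hochberg), where 0.724% of the 17539 genes tested did, and 1 of the 9, Tlr3, had an unadjusted p under 0.05. The log2 fold changes were above 0 for 7 genes and below 0 for Mavs and Tlr3, with a median of 0.30 against 0.01 over all genes. Zbp1 was 2.62, 1.36 and 5.49 CPM in controls and 8.95, 3.32, 9.25 and 4.24 CPM in sgUba1 tumors, a log2 fold change of 1.04 ± 0.48 (SE, adjusted p = 0.314 by edgeR), and the groups overlapped. It was 0.67 without control replicate 2 and 1.70 without control replicate 4.

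Ifih1 in B16-BL6 was 13.8, 7.57 and 18.1 CPM in controls and 24.4, 13.6, 21.8 and 12.8 CPM in sgUba1 tumors (log2 fold change 0.47 ± 0.30, edgeR adjusted p = 0.468). Control replicate 2 was the lowest control for every one of the genes but Tbk1, and without it the log2 fold changes of Ddx58 and Dhx58 were 0.02 and 0.01 where they were 0.31 and 0.31 with it, and those of Ifih1 and Eif2ak2 were 0.18 and 0.16. Without control replicate 4, the highest of the 3 for these 4 genes, they were 0.58, 0.55, 0.77 and 0.43 for Ddx58, Dhx58, Ifih1 and Eif2ak2. Eif2ak2, at 70.0, 54.4 and 80.1 CPM against 98.7, 83.6, 82.4 and 71.3 CPM, gave 0.30 ± 0.14 (edgeR adjusted p = 0.308). Tlr3 was 25.8, 22.2 and 27.2 CPM in controls and 23.9, 21.1, 19.5 and 20.9 CPM in sgUba1 tumors (-0.23 ± 0.10, edgeR adjusted p = 0.287). The myeloid marker sum was 140 to 246 TPM in controls and 240 to 308 TPM in sgUba1 tumors, and its part in these values was not tested.

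In Myc-CaP tumors labelled sgUba1, LGP2 RNA rose. Dhx58 was 3.86, 2.22 and 2.49 CPM in controls and 5.6 to 8.07 CPM (median 6.2) in the 7 sgUba1 tumors, without overlap, a 2.23-fold difference with a log2 fold change of 1.16 ± 0.21 (SE, edgeR adjusted p = 0.0273). It was the 1 of the 9 genes that passed, where 3.04% of 16202 genes did. The call depended on which tumor was left out: when control replicate 2 or 3 or any of sgUba1 replicates 4, 5, 6 and 7 was left out, the log2 fold change stayed between 1.003 and 1.19 and the adjusted p lay between 0.0516 and 0.118. When control replicate 1 or sgUba1 replicate 1, 2 or 3 was left out it passed. Without the 4 tumors whose Uba1 stood above every control, sgUba1 replicates 4 to 7, it was 1.12 ± 0.27 with an adjusted p of 0.134.

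ZBP1 and MDA5 RNA were also higher in most of the Myc-CaP tumors labelled sgUba1 but did not pass. Zbp1 was 3.35, 2.22 and 1.45 CPM in controls and 3.02 to 10.96 CPM (median 7.96) in sgUba1 tumors (1.59 ± 0.40, edgeR adjusted p = 0.0591), with 1 of the 7 below the highest control. Ifih1 was 4.38, 3.83 and 2.81 CPM against 3.26 to 10.6 CPM (median 8.96), with overlap (1.07 ± 0.37, edgeR adjusted p = 0.123). Without control replicate 1 the adjusted p of Zbp1 was 0.0487, and without sgUba1 replicate 2, the lowest of the 7 for both genes, the adjusted p was 0.0275 for Zbp1 and 0.0485 for Ifih1. Without the 4 tumors that kept Uba1 RNA the log2 fold changes were 1.43 ± 0.54 for Zbp1 and 0.61 ± 0.40 for Ifih1.

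RIG-I and PKR RNA followed another pattern in the same tumors. Ddx58 was 20.2, 29.1 and 23.3 CPM in controls, 21.96, 18.5 and 23.8 CPM in the 3 sgUba1 tumors with Uba1 at 197 to 211 CPM, and 51.8, 50.8, 54.4 and 57.4 CPM in the 4 with Uba1 at 361 to 383 CPM. Eif2ak2 was 45.1, 50.7 and 42.1 CPM in controls, 56.3, 53.8 and 53.1 CPM in the former and 96.3, 81.5, 86.6 and 91.8 CPM in the latter. The high values of both genes thus stood in the tumors that kept Uba1 RNA. Over all 7, the log2 fold changes were 0.72 ± 0.39 for Ddx58 (edgeR adjusted p = 0.289) and 0.69 ± 0.22 for Eif2ak2 (edgeR adjusted p = 0.102), and without those 4 they were -0.18 ± 0.17 and 0.24 ± 0.10, with adjusted p of 0.615 and 0.266.

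**Figure D2:**
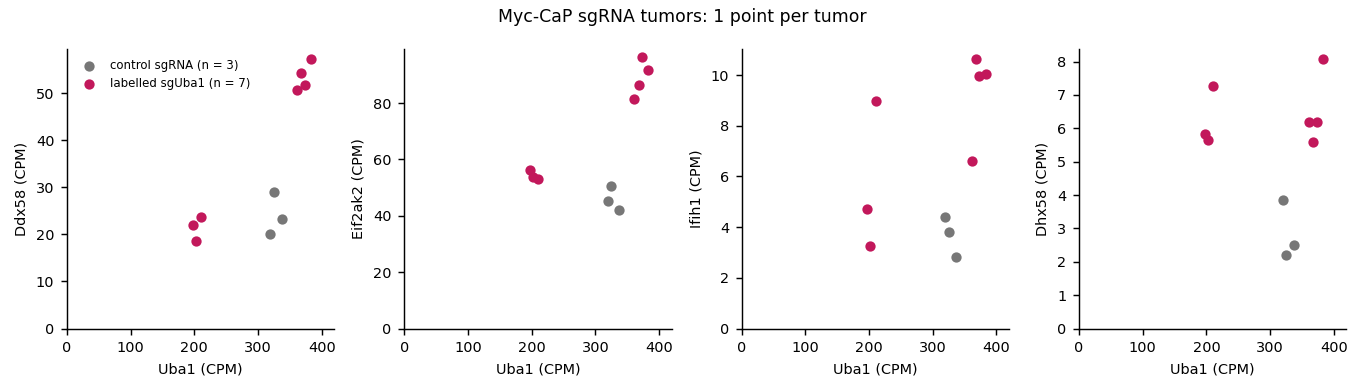
Level in CPM of Ddx58, Eif2ak2, Ifih1 and Dhx58 (vertical axes) against Uba1 in CPM (horizontal axes) in 3 control and 7 Myc-CaP tumors labelled sgUba1, 1 point per tumor. Ddx58 is 50.8 to 57.4 CPM in the 4 labelled tumors with Uba1 above every control and 18.5 to 23.8 CPM in the other 3, while Dhx58 is 5.6 CPM or more in all 7.

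Adar was 83.5, 84.9 and 65.8 CPM in Myc-CaP controls and 88.4 to 99.7 CPM (median 92.9) with sgUba1, without overlap (0.26 ± 0.10, edgeR adjusted p = 0.153). With Dhx58 and Eif2ak2 it made 3 of 9 genes whose groups did not overlap with sgUba1 higher, which held for 5.54% of all genes tested. The adaptor Mavs (42.3 to 56.9 CPM against 48.2 to 56.8 CPM) and the kinase Tbk1 (50.7 to 63.2 CPM against 54.3 to 64.5 CPM) had log2 fold changes of -0.10 ± 0.11 and -0.07 ± 0.10. Tlr3 was 23.4, 47.2 and 22.5 CPM in controls and 19.0 to 28.0 CPM with sgUba1 (-0.36 ± 0.23, edgeR adjusted p = 0.372), and without control replicate 2, the tumor at 47.2 CPM, it was 0.07. Without the 4 tumors whose Uba1 RNA stood above every control, the log2 fold change of Tlr3 was -0.62 ± 0.29. In that fit it was 0.19 ± 0.12 for Adar, -0.20 ± 0.11 for Mavs and -0.03 ± 0.12 for Tbk1. Immune markers moved with these groups: the myeloid sum was 332 to 610 TPM in controls and 572 to 1007 TPM in sgUba1 tumors, with 4 of 13 tested markers called higher, among them Adgre1, Ptprc and Cd68, and the sum of 13 T and NK cell markers was 9.74 to 13.03 TPM against 13.8 to 26.9 TPM with 0 of 6 tested called. Their part in the sensor levels was not tested. In the 4 tumors with high Ddx58 the myeloid sum was 572 to 815 TPM and in the 3 others 623 to 1007 TPM.

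Whether the sgUba1 effect differed between the models was tested in a single fit over the 17 tumors of both. None of the 9 genes passed, where 1.52% of 17513 genes did, and 0 had an unadjusted p under 0.05. The difference in log2 fold change, Myc-CaP minus B16-BL6, was 0.86 ± 0.43 for Dhx58 (edgeR adjusted p = 0.297), the largest of the 9, and -0.13 ± 0.12 for Tbk1 at the other end. The 4 Myc-CaP tumors that kept Uba1 RNA enter this fit, and without them the difference for Ddx58 was -0.48 where it was 0.42 with them.

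In Uba1 OE tumors the sensors lay lower than with the empty vector, without passing the adjusted test. Of the 9 genes 8 had a log2 fold change below 0, with a median of -0.36 against 0.00 over all genes, and 7 had an unadjusted p under 0.05, but 0 passed an adjusted p of 0.05, where 0.0269% of 14853 genes, 4 genes, did. The share of all genes with an unadjusted p under 0.05 is not given here, so the 7 cannot be set against it. The groups did not overlap, with OE lower, for 6 of the 9 (Ddx58, Dhx58, Tbk1, Eif2ak2, Zbp1 and Adar), which held for 10.1% of all genes tested. The smallest adjusted p among the 9 was that of Adar, 76.1, 78.03 and 76.2 CPM with the empty vector and 51.3, 57.8, 65.3 and 64.3 CPM with OE (-0.36 ± 0.10, edgeR adjusted p = 0.153).

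Zbp1 showed the largest fitted change of the 9 with OE. It was 3.28, 6.34 and 7.09 CPM with the empty vector and 0.793, 2.05, 3.26 and 1.39 CPM with OE, a log2 fold change of -1.54 ± 0.44 (edgeR adjusted p = 0.157), on 8 to 67 counts a tumor. Dhx58 was 4.48, 5.32 and 4.76 CPM against 0.991, 2.15, 3.42 and 3.0 CPM (-1.01 ± 0.35, edgeR adjusted p = 0.205). Each OE tumor was thus below each empty-vector tumor for both genes, for Zbp1 by a small margin between 3.26 and 3.28 CPM.

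Ddx58 was 23.4, 27.1 and 20.4 CPM with the empty vector and 12.6, 14.3, 20.1 and 18.2 CPM with OE (-0.53 ± 0.19, edgeR adjusted p = 0.202). Ifih1 was 4.05, 5.89 and 6.67 CPM against 1.69, 2.24, 5.22 and 2.78 CPM, with OE replicate 3 inside the empty-vector range (-0.87 ± 0.38, edgeR adjusted p = 0.27). OE replicate 1 was the lowest of the 7 tumors for Ddx58, Ifih1, Dhx58, Tlr3, Eif2ak2, Zbp1 and Adar, and it also had the lowest myeloid marker sum, 148 TPM with the next OE tumor at 346 TPM, and the lowest T and NK cell sum, 5.66 TPM. Without it the log2 fold changes of Zbp1, Dhx58 and Ifih1 were -1.29, -0.76 and -0.67, and without OE replicate 3 that of Ifih1 was -1.32. Eif2ak2 (-0.34 ± 0.13) and Tbk1 (-0.23 ± 0.08) differed less, and Mavs (0.17 ± 0.12) and Tlr3 (-0.10 ± 0.14) overlapped. The summed T and NK cell markers were 16.4 to 22.7 TPM with the empty vector and 5.66 to 9.38 TPM with OE, and the myeloid sum 461 to 572 TPM against 148 to 573 TPM, with 0 of 2 and 0 of 12 tested markers called. In cultured Myc-CaP cells the T and NK cell sum was 2.13 to 8.15 TPM, so the OE sums lie in or near that range. Skeletal muscle markers summed to 11.3 to 17.8 TPM with the empty vector and 11.3 to 389.9 TPM with OE, with 0 of 4 tested called. The part of these markers in the sensor values was not tested.

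TAK-243 in mice left all 9 genes with a log2 fold change above 0, with a median of 0.30 against 0.01 over all genes, and none passed, where 0.145% of 17299 genes did. Ddx58 was 12.1 to 25.9 CPM (median 18.02) in 6 vehicle tumors and 26.9, 28.3, 31.1, 40.2 and 35.5 CPM in 5 TAK-243 tumors, without overlap, a log2 fold change of 0.78 ± 0.17 (edgeR adjusted p = 0.0973). It was the 1 of 9 genes whose groups did not overlap, which held with TAK-243 higher for 0.884% of genes tested. DESeq2 called it higher, in a fit that called 544 of all genes where edgeR called 25, and limma-voom called 0 of the 9.

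Ifih1 was 1.88 to 3.26 CPM (median 2.8) with vehicle and 4.06, 4.96, 4.18, 5.25 and 2.3 CPM with TAK-243 (0.60 ± 0.20, edgeR adjusted p = 0.205). The overlap came from TAK-243 replicate 5, which was also the lowest of the 5 for Zbp1 and Eif2ak2 but the highest for Tlr3. That tumor also had the lowest myeloid sum of the 5, 354 TPM, inside the vehicle range, and a T and NK cell sum of 8.07 TPM, below every vehicle tumor, and without it the log2 fold change of Ifih1 was 0.76 with an adjusted p of 0.0389. Its T and NK cell sum lies within the 2.13 to 8.15 TPM of cultured Myc-CaP cells. Adar was 53.0 to 80.1 CPM (median 70.6) against 81.2, 87.6, 78.7, 95.2 and 83.0 CPM, with 1 TAK-243 tumor below the highest vehicle tumor (0.30 ± 0.10, edgeR adjusted p = 0.188). Eif2ak2 (0.26 ± 0.10), Tlr3 (0.33 ± 0.16), Zbp1 (0.30 ± 0.34), Dhx58 (0.19 ± 0.21), Tbk1 (0.10 ± 0.07) and Mavs (0.04 ± 0.09) overlapped. The myeloid sum was 246 to 388 TPM with vehicle and 354 to 704 TPM with TAK-243, with 3 of 14 markers called higher (S100a9, S100a8 and Itgam), and its part was not tested.

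**Figure D3:**
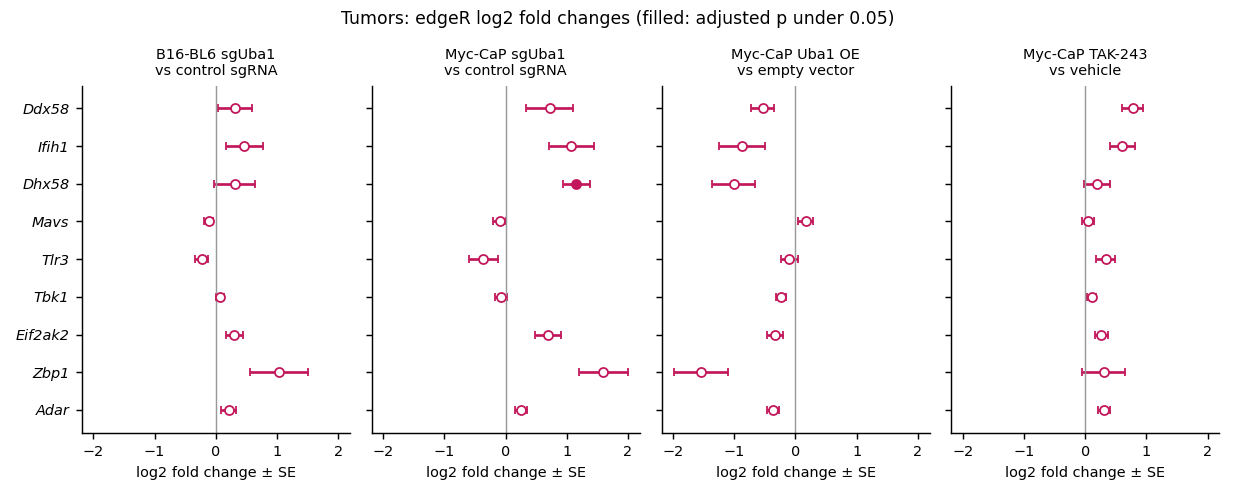
Log2 fold change with its SE (horizontal axes) from edgeR for the 9 genes in the 4 tumor comparisons, with filled points for an adjusted p under 0.05. Dhx58 in Myc-CaP sgUba1 tumors is the single filled point, and Mavs and Tbk1 stay between -0.23 and 0.17 in all 4 panels.

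The wider pathway was examined in lists of other sensors (18 genes), adaptors and kinases (20), ubiquitin regulators of the RIG-I pathway (27), the branch of double-stranded RNA binding and PKR (12), interferon genes (20) and interferon-induced reference genes (9). In the 4 tumor comparisons and in the difference between models, 0 genes of these 6 lists passed. The reference genes had median log2 fold changes of 0.36 in B16-BL6, 0.54 in Myc-CaP sgUba1, -0.74 with Uba1 OE and 0.57 with TAK-243, against 0.00 to 0.01 over all genes, and the other sensors 0.31, 0.23, -0.15 and 0.06. The lists of adaptors, ubiquitin regulators and PKR partners stayed between -0.11 and 0.17 in these 4, while for the difference between models the adaptors had 0.26 and the PKR branch 0.31. Interferon RNA itself was scarce. The 20 interferon genes summed to 0 to 1.21 TPM in Myc-CaP tumors and 2.99 to 4.34 TPM in B16-BL6 tumors, where 19 of 20 stayed under 1 TPM, Ifnb1 and Ifng included, and at most 1 of 20 had enough counts to be tested in a tumor comparison.

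In cultured Myc-CaP cells without IFN-γ, 5 of the genes were higher in sgUba1 than in control sgRNA cells and the adaptor Mavs was lower. Both are single-cell sublines per the study's methods, so guide and subline cannot be told apart in any comparison between them. Of the 7 genes tested, Tlr3, Ddx58, Eif2ak2, Adar and Tbk1 were called higher and Mavs lower, 6 of 7 where 29.7% of 15530 genes were called. Tlr3 changed most: it was 4.57 and 4.87 CPM in control cells and 13 and 13.6 CPM in sgUba1 cells, a log2 fold change of 1.49 ± 0.10 (SE, edgeR adjusted p = 3.171e-06). Ddx58 was 3.06 and 2.32 CPM in controls and 5.47 and 4.03 CPM with sgUba1 (0.83 ± 0.18, edgeR adjusted p = 0.00477).

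Eif2ak2 was 25.3 and 26.2 CPM in control cells and 32.5 and 33.7 CPM in sgUba1 cells (0.36 ± 0.06, edgeR adjusted p = 0.00135), and Adar 43.2 and 41.0 CPM against 53.9 and 50.7 CPM (0.31 ± 0.06, edgeR adjusted p = 0.00202). Tbk1 differed by less, at 53.3 and 54.3 CPM against 60.8 and 62.0 CPM (0.19 ± 0.05, edgeR adjusted p = 0.0111). Mavs was 57.2 and 54.1 CPM against 49.3 and 50.0 CPM (-0.16 ± 0.06, edgeR adjusted p = 0.0429). Dhx58 was 2.21 and 1.96 CPM against 2.06 and 2.12 CPM (0.00 ± 0.19). Without sgUba1 replicate 1, Ddx58 had a log2 fold change of 0.56 and an adjusted p of 0.0726, and Adar, Tbk1 and Mavs had adjusted p of 0.0628, 0.0912 and 0.144. Tbk1 also missed without sgUba1 replicate 2, and Mavs passed in 1 of the 8 fits that left out a library, that without control replicate 2.

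With IFN-γ, sgUba1 cells had Tlr3, Ddx58, Eif2ak2, Adar and Tbk1 called higher than control cells and Mavs lower, 6 of 7, where 39.4% of 15530 genes were called. Tlr3 was 4.99 and 5.28 CPM in control cells and 16.2 and 18.4 CPM in sgUba1 cells (1.75 ± 0.10, edgeR adjusted p = 3.984e-07). Ddx58 was 4.83 and 4.54 CPM against 9.21 and 9.15 CPM (0.97 ± 0.15, edgeR adjusted p = 0.000362), and Eif2ak2 24.9 and 26.6 CPM against 38.5 and 37.1 CPM (0.55 ± 0.06, edgeR adjusted p = 4.334e-05). Mavs was 65.6 and 63.9 CPM against 46.0 and 49.8 CPM (-0.43 ± 0.05, edgeR adjusted p = 8.696e-05). Adar missed the threshold without either IFN-γ control or without sgUba1 IFN-γ replicate 2, and Tbk1 without either IFN-γ control, with adjusted p of 0.0513 to 0.0997.

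IFN-γ itself moved few of the genes. In control sgRNA cells Ddx58 alone passed, from 3.06 and 2.32 to 4.83 and 4.54 CPM (0.81 ± 0.18, edgeR adjusted p = 0.0386), 1 of 7 where 3.88% of genes were called, and it did not pass when control replicate 2 without IFN-γ, or any one of the 6 libraries with IFN-γ or with sgUba1, was left out, with adjusted p of 0.078 to 0.283. Without control replicate 1, Adar and Mavs passed too, with adjusted p of 0.009 and 0.00628. Adar (0.23 ± 0.06) and Mavs (0.22 ± 0.05) had adjusted p of 0.0536 and 0.0518. The IFN-γ response of none of the 7 was called different in sgUba1 cells, where 4.64% of genes were called for that interaction. For Mavs the interaction was -0.27 ± 0.08 (edgeR adjusted p = 0.073), and without control replicate 1 or 2 its adjusted p was 0.0138 or 0.0386.

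TAK-243 in culture was compared with untreated cells. Without IFN-γ, Dhx58, Ddx58, Tlr3, Tbk1 and Adar rose and Mavs fell, 6 of 7 called where 66.3% of 14551 genes were. With most genes called, that count is no result about the 7 genes. Dhx58, at 0.00 ± 0.19 in the sgUba1 comparison, was 1.53 and 1.19 CPM in untreated cells and 2.76 and 2.81 CPM with TAK-243 (1.03 ± 0.32, edgeR adjusted p = 0.00555), on 19 or more counts a library. Ddx58 was 9.0 and 6.12 CPM against 10.8 and 10.7 CPM (0.51 ± 0.15, edgeR adjusted p = 0.0034). Without untreated replicate 2, the lower library for both, Dhx58 and Ddx58 had adjusted p of 0.0621 and 0.185, and Adar and Mavs did not pass either. Tlr3 had an adjusted p of 0.0884 without TAK-243 replicate 1, and Adar missed without any one of the 4 libraries with TAK-243.

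Tbk1 was 54.2 and 57.6 CPM in untreated cells and 67.7 and 68.0 CPM with TAK-243 (0.28 ± 0.06, edgeR adjusted p = 8.665e-05), and Tlr3 13.7 and 13.7 CPM against 17.4 and 17.1 CPM (0.33 ± 0.10, edgeR adjusted p = 0.00597). Adar rose by 0.18 ± 0.06 on the log2 scale and Mavs fell by 0.18 ± 0.07. Eif2ak2 was 36.1 and 34.5 CPM against 31.5 and 33.2 CPM (-0.13 ± 0.09, edgeR adjusted p = 0.207), and without replicate 2 of the combination with IFN-γ it passed, at -0.19 with an adjusted p of 0.0442. The test of sgUba1 against TAK-243 was not made, since the drug and the guide were studied in separate experiments with separate controls.

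With IFN-γ present, TAK-243 raised Dhx58, Tbk1, Ddx58 and Adar and lowered Mavs, 5 of 7 called where 68.2% of genes were. The count lies near the share of all genes and is no result about the 7. Mavs was 49.4 and 52.1 CPM with IFN-γ alone and 34.4 and 38.8 CPM with both (-0.47 ± 0.07, edgeR adjusted p = 1.899e-06), and Tbk1 51.6 and 52.3 CPM against 68.4 and 69.8 CPM (0.41 ± 0.06, edgeR adjusted p = 2.891e-07). Dhx58 was 1.9 and 1.15 CPM against 2.88 and 2.57 CPM (0.84 ± 0.32, edgeR adjusted p = 0.0193), and Ddx58 11.7 and 11.2 CPM against 14.1 and 14.2 CPM (0.31 ± 0.13, edgeR adjusted p = 0.0402). Tlr3 gave 0.20 ± 0.10 (edgeR adjusted p = 0.0803). Eif2ak2 gave 0.10 ± 0.09 (edgeR adjusted p = 0.306), and without replicate 1 of the combination it passed, at 0.24 with an adjusted p of 0.0317. Leaving out IFN-γ replicate 2 or replicate 1 of the combination gave Dhx58 an adjusted p of 0.232 or 0.0986, and leaving out any of the 4 libraries with IFN-γ took the adjusted p of Ddx58 to between 0.0978 and 0.183.

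In unmodified cells IFN-γ raised Ddx58, from 9.0 and 6.12 to 11.7 and 11.2 CPM (0.60 ± 0.15, edgeR adjusted p = 0.00212), and Adar, from 45.8 and 44.4 to 57.3 and 55.3 CPM (0.32 ± 0.06, edgeR adjusted p = 0.000248), 2 of 7 called where 29% of genes were. That count too lies near the share of all genes and is no result about the 7. Without untreated replicate 2 the adjusted p of Ddx58 was 0.123. For the interaction of TAK-243 with IFN-γ, 0 of 7 passed, where 2.38% of genes did, and Mavs at -0.29 ± 0.11 was the 1 gene with an unadjusted p under 0.05 (edgeR adjusted p = 0.168).

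**Figure D4:**
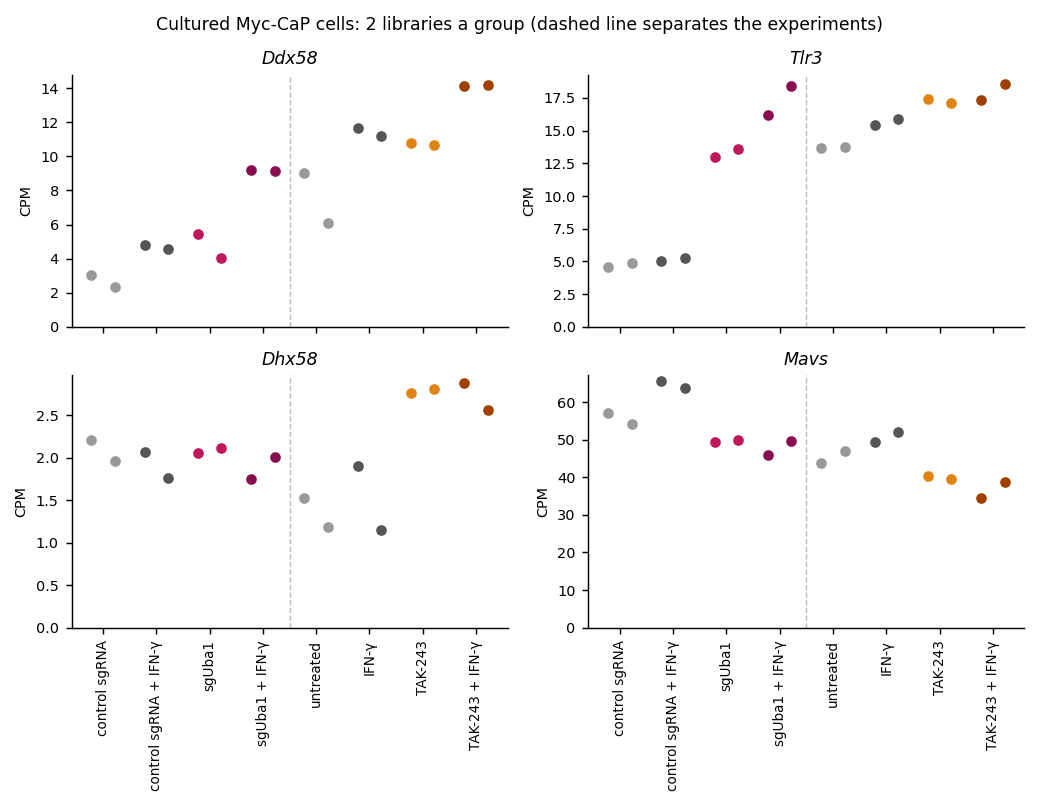
Level in CPM (vertical axes) of Ddx58, Tlr3, Dhx58 and Mavs in the 16 libraries of cultured Myc-CaP cells by group (horizontal axis), 1 point per library. Tlr3 is 4.57 to 5.28 CPM in the 4 control sgRNA libraries and 13 CPM or more in the other 12, and Dhx58 is highest in the 4 libraries with TAK-243.

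Levels in control sgRNA cells and in unmodified Myc-CaP cells are set side by side for Tlr3, Ddx58, Eif2ak2 and Mavs. Tlr3 was 4.57 and 4.87 CPM in control sgRNA cells but 13.7 and 13.7 CPM in unmodified untreated cells, close to the 13 and 13.6 CPM of sgUba1 cells. Ddx58 was 3.06 and 2.32 CPM in control sgRNA cells, 5.47 and 4.03 CPM in sgUba1 cells and 9.0 and 6.12 CPM in unmodified cells. Eif2ak2 was 25.3 and 26.2 CPM in control sgRNA cells, 32.5 and 33.7 CPM in sgUba1 cells and 36.1 and 34.5 CPM in unmodified cells. Mavs was 57.2 and 54.1 CPM in control sgRNA cells and 43.8 and 47.0 CPM in unmodified cells, with sgUba1 cells at 49.3 and 50.0 CPM. Unmodified and sgRNA cells were sequenced in separate experiments and were scaled separately, and the sgRNA lines are single-cell sublines per the study's methods, so subline and guide cannot be told apart here.

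Other genes of the pathway were called in both directions with sgUba1 in cells, where 29.7% of all genes tested were called. Without IFN-γ, 1 of 13 tested other sensors was called higher and 2 lower, 2 of 17 adaptors and kinases higher and 2 lower, 7 of 26 ubiquitin regulators higher and 2 lower, and 4 of 11 genes of the PKR branch higher and 3 lower. With shares near that of all genes, the first 3 lists are no result about the pathway. Ikbke, the gene of IKKε, the kinase that acts beside TBK1, rose from a mean of 5.04 to 7.94 CPM (0.65 ± 0.11, edgeR adjusted p = 0.00101), Nlrx1, an inhibitor of MAVS signaling, rose from 3.09 to 5.99 CPM (0.95 ± 0.14, edgeR adjusted p = 0.0005), and Ripk3, the kinase engaged by ZBP1 in necroptosis, rose from 9.67 to 12.6 CPM (0.38 ± 0.09, edgeR adjusted p = 0.00641). Zcchc3, a co-sensor of RIG-I and cGAS, fell by 0.55 ± 0.08 (edgeR adjusted p = 0.00032). Of 7 tested reference genes 3 rose.

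With IFN-γ, where 39.4% of all genes were called, sgUba1 cells had 2 of 13 other sensors called higher and 3 lower, 4 of 17 adaptors and kinases higher and 3 lower, 8 of 26 ubiquitin regulators higher and 9 lower, 2 of 11 genes of the PKR branch higher and 5 lower, and 6 of 7 reference genes higher. Irf3, the transcription factor activated by TBK1, fell by 0.32 ± 0.06 (edgeR adjusted p = 0.00113). In control sgRNA cells IFN-γ alone raised 1 of 17 adaptors, Myd88 (0.36 ± 0.08, edgeR adjusted p = 0.0363), and 3 of 7 reference genes, Irf1 and Irf9 among them. In that comparison 3.88% of all genes were called, so the count of adaptors is no result about that list.

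TAK-243 without IFN-γ called 66.3% of all genes, and the shares called among other sensors, adaptors and ubiquitin regulators lay around it. Without IFN-γ, 6 of 13 other sensors were called higher and 1 lower, 9 of 18 adaptors and kinases higher and 5 lower, 14 of 26 ubiquitin regulators higher and 6 lower, and 6 of 11 genes of the PKR branch higher and 4 lower. Ppp1r15a, the phosphatase subunit that reverses the PKR mark on eIF2α, rose from a mean of 18.5 to 134 CPM (2.86 ± 0.07, edgeR adjusted p = 4.371e-25), and Prkra, the gene of the PKR activator PACT, fell from 12.0 to 5.08 CPM (-1.22 ± 0.17, edgeR adjusted p = 1.653e-07). Irf3 fell from 34.1 to 15.6 CPM (-1.11 ± 0.10, edgeR adjusted p = 1.05e-10), Tax1bp1, an autophagy receptor that restrains MAVS, rose from 163 to 483 CPM (1.56 ± 0.03, edgeR adjusted p = 1.29e-25), and Dtx4, a ligase that acts on TBK1, fell by 1.37 ± 0.04 (edgeR adjusted p = 8.478e-23). Of 8 reference genes 4 rose and 1 fell.

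With IFN-γ, where 68.2% of all genes were called, TAK-243 raised 8 of 13 other sensors and lowered 1, raised 6 of 18 adaptors and kinases and lowered 6, raised 13 of 26 ubiquitin regulators and lowered 6, and raised 6 of 11 genes of the PKR branch and lowered 5. Sting1, the adaptor of DNA sensing, rose from 3.09 to 9.22 CPM (1.58 ± 0.20, edgeR adjusted p = 3.796e-08), and of 8 reference genes 5 rose and 1 fell. IFN-γ alone in unmodified cells, where 29% of all genes were called, raised 1 of 13 other sensors and lowered 4, raised 3 of 18 adaptors and lowered 1, raised 9 of 26 ubiquitin regulators and lowered 4, and raised 1 of 11 genes of the PKR branch and lowered 1, while 5 of 8 reference genes rose and 1 fell. For the 2 interactions with IFN-γ, 2 of 7 reference genes passed with sgUba1, Irf1 among them, and 3 of 26 ubiquitin regulators with TAK-243, all lower (Ube2v1, Dtx4 and Usp4). The 20 interferon genes stayed under 1 TPM in all 16 cell libraries.

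Across the 35 tumors Ddx58, Ifih1, Dhx58, Eif2ak2, Zbp1 and Adar had positive correlations with each other, of 0.385 to 0.89, and Tlr3, Mavs and Tbk1 had lower ones with part or all of them. After log2 CPM values were centred within each of the 8 tumor groups, Pearson r was 0.89 between Ddx58 and Eif2ak2, 0.861 between Ifih1 and Zbp1, 0.774 between Dhx58 and Zbp1 and 0.738 between Ifih1 and Eif2ak2. Tlr3 reached 0.648 with Ddx58 and 0.535 with Eif2ak2, but was 0.274 with Ifih1, 0.045 with Zbp1 and -0.01 with Dhx58. Mavs lay between -0.28 and 0.25 with the other genes and Tbk1 between -0.16 and 0.05. These values describe tumors that share lines, experiments and in part mice, and within the Myc-CaP group labelled sgUba1 they include the gap between the 3 and the 4 tumors described above.

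**Figure D5:**
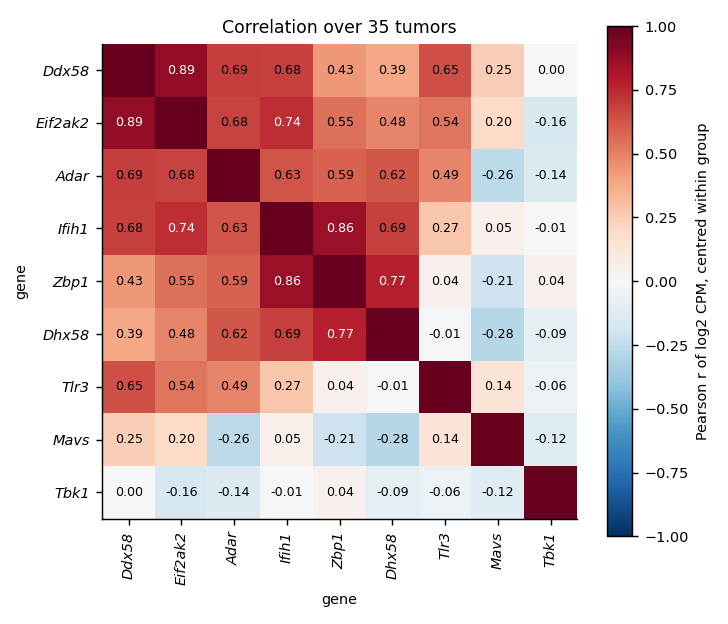
Pearson r (colour and number) between the 9 genes over 35 tumors, for log2 CPM centred within each tumor group. Ddx58, Ifih1, Dhx58, Eif2ak2, Zbp1 and Adar have r of 0.385 to 0.89 with each other, Tlr3 runs from -0.06 to 0.648, and the rows of Mavs and Tbk1 stay between -0.28 and 0.25.

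Of 13321 genes searched, those most like Ddx58 over the tumors were Jak2 (r = 0.891), Eif2ak2 (0.89) and Tor3a (0.884). Trim30a (0.903), Ddx60 (0.884) and Pik3ap1 (0.87) were most like Ifih1, Rtp4 (0.831), Cxcl16 (0.814) and Tmem229b (0.809) most like Dhx58, and Ifi209 (0.865), Cybb (0.864) and Gm8995 (0.862) most like Zbp1. Adar was closest to Irf9 (0.843), Cmpk2 (0.842) and Rtp4 (0.825), and Eif2ak2 to Ddx58, Gm6548 (0.867) and Pcmtd1 (0.847). Tlr3 was closest to B3gnt3 (0.879), Ssh3 (0.844) and Ltbp3 (0.831), Mavs to Tm7sf2 (0.752), Tmem126a (0.717) and Mtpn (0.713), and Tbk1 to Serpina3n (0.681), Prelp (0.621) and Plcb1 (0.612). The Pearson r of these pairs without the 2 tumors farthest from the median of the member was 0.545 or more. Leaving out 2 tumors does not remove the gap within the Myc-CaP group labelled sgUba1 described above.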

How the data were processed

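Bulk RNA was sequenced from 35 tumors and 16 libraries of cultured cells. The authors' deposited table holds estimated counts per gene, made with kallisto on mm10 per the submitters' processing notes, and the deposited TPM values of the same genes, which are scaled by gene length and to the same total in each library. Of the estimated counts 77.0% were whole within 0.001, and all were rounded to whole numbers. The labels describe poly-A selection, whereas the study's methods name ribosomal depletion, and the strand setting of the counting is not given in the sources used here. Gene identifiers of the same version were found in GENCODE M21 for 39142 of 40077 genes.

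Counts were tested with edgeR 4.0.16 in R 4.3.3 (filterByExpr, TMM factors, quasi-likelihood F-test), fitted over all genes that passed the filter on low counts, with p-values adjusted over all of them by the Benjamini-Hochberg method at 0.05. Each tumor experiment was fitted on its own, both sgUba1 tumor experiments were joined for the difference between models, and each cell experiment was fitted over its 4 groups. Ifih1 and Zbp1 did not pass the filter in cells and were not tested there, while all 9 genes passed in tumors. The scripts were tested on simulated counts with known changes. Alternatives were DESeq2 1.42.0, limma 3.58.1 (voom, log2(TPM + 1) and log2(TPM + 0.1)), RLE factors, no filter, a replicate block, only the 2 groups compared and leaving out each library in turn. The fit without the 4 tumors labelled sgUba1 whose Uba1 stood above every control was added after seeing the data. CPM values carry TMM factors set within an experiment, so levels across experiments are set side by side and not tested. The members, the gene lists and the tests were chosen with earlier results of these data known. Named genes of the lists come from the called genes with the largest absolute log2 fold change, up to 3 per list, comparison and direction, and the genes most like each member were the 3 with the highest Pearson r over the 35 tumors. Results that needed items withheld for evaluation are not reported here.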

Additional observations from a re-analysis of the deposited data

Results flagged for a closer look

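Tlr3 was higher in sgUba1 than in control sgRNA cells, where subline and guide cannot be told apart. Its log2 fold change had the opposite sign in tumors. It was 1.49 in cultured Myc-CaP cells, -0.36 in Myc-CaP tumors and -0.23 in B16-BL6 tumors. The difference between cells and tumors was not tested, and the tumor values did not pass the adjusted test. The Myc-CaP tumor value was 0.066 without control replicate 2. It was -0.62 without the 4 labelled tumors whose Uba1 RNA stood above every control. Eif2ak2 had a log2 fold change of 0.26 with TAK-243 in tumors and -0.13 with TAK-243 in cultured cells. Neither value passed an adjusted p of 0.05 and the difference was not tested. In 45 checks for a tumor far from the others of its group, over the 9 genes in the 5 tumor groups of 4 to 7 samples, 0 were marked, where chance marks about 1 in 20.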

How the results depend on the processing

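In tumors, the number of the 9 genes called depended on the tool. DESeq2 called 4 in Myc-CaP sgUba1 tumors, 1 with Uba1 OE and 1 with TAK-243, where edgeR called 1, 0 and 0. Over all genes DESeq2 called 1862, 707 and 544 in these comparisons, where edgeR called 492, 4 and 25. In the Myc-CaP sgUba1 comparison the replicate block called 0 and gave Ddx58 -0.17, and the fit without the 4 tumors that kept Uba1 RNA called 0 and gave Ddx58 -0.18. Over all genes the fit without those 4 called 1. For the difference between models, limma gave Adar -0.023 and Mavs -0.071 on log2(TPM + 1) and Adar -0.025 and Mavs -0.073 on log2(TPM + 0.1), the replicate block gave Eif2ak2 -0.064, Ddx58 -0.46 and Mavs -0.11, and the fit without the 4 tumors gave Eif2ak2 -0.051, Adar -0.0155, Ddx58 -0.48 and Mavs -0.075. Deviations from the group mean were correlated over genes between same-numbered tumors. In the TAK-243 experiment r was -0.179 to 0.315, and pairs with different numbers ran from -0.358 to 0.406. In B16-BL6 same-numbered r was -0.049 to 0.164. Such values cannot settle whether the numbers pair samples, and the main fits used no pairing.

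In cells, the count for IFN-γ in control sgRNA cells was 0 with RLE factors, 0 with limma on log2(TPM + 1), 0 on log2(TPM + 0.1), 0 with only the 2 groups compared and 3 with no filter, and Tbk1 and Tlr3 were -0.016 and -0.23 on log2(TPM + 1) and -0.0164 and -0.32 on log2(TPM + 0.1). Over all genes, that comparison called 18 on log2(TPM + 1) and 1460 with no filter, where the main fit called 603. The sgUba1 interaction called 1 with no filter, and its Tbk1 value was 0.0139 with DESeq2 and 0.0138 with RLE factors. With no filter it called 1487 of all genes, where the main fit called 720. TAK-243 without IFN-γ called 3 with DESeq2, 2 on log2(TPM + 1) and 2 on log2(TPM + 0.1), and with IFN-γ 3 with DESeq2. Over all genes DESeq2 called 8396 without and 8719 with IFN-γ, where edgeR called 9644 and 9918. IFN-γ in untreated cells called 1 on log2(TPM + 1), with Dhx58 -0.037, Tlr3 -0.0058 and Mavs -0.068, and 1 on log2(TPM + 0.1), with Dhx58 -0.0855, Tlr3 -0.012 and Mavs -0.0702. The TAK-243 interaction gave Ddx58 0.053 on log2(TPM + 1) and Ddx58 0.042 and Dhx58 0.0053 on log2(TPM + 0.1). The TPM values carry a length set per library: Tlr3 in IFN-γ cells was 15.4 and 15.9 CPM but 6.47 and 11.8 TPM. The causes of these changes were not tested.

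Leaving out 1 library at a time, in 68 fits, gave 0 to 0 members called in B16-BL6, 0 to 3 in Myc-CaP sgUba1, 0 to 0 with OE, 0 to 1 with TAK-243 in tumors and 0 to 0 for the difference between models. In cells it gave 2 to 6 for sgUba1, 4 to 6 with IFN-γ, 0 to 3 for IFN-γ in control cells, 0 to 1 for its interaction, 2 to 6 for TAK-243, 3 to 5 with IFN-γ, 1 to 2 for IFN-γ in untreated cells and 0 to 0 for that interaction. Signs turned for Tlr3 in Myc-CaP sgUba1 tumors (-0.55 to 0.066), for Mavs with TAK-243 in tumors (-0.058 to 0.083), for Zbp1 (-0.092 to 0.95), Adar (-0.048 to 0.18), Tlr3 (-0.30 to 0.33) and Mavs (-0.0399 to 0.099) in the difference between models, for Dhx58 in sgUba1 cells without (-0.084 to 0.0903) and with IFN-γ (-0.14 to 0.13), for Eif2ak2 (-0.044 to 0.0475) with IFN-γ in control sgRNA cells, for Dhx58 (-0.14 to 0.13), Tbk1 (-0.02 to 0.083), Adar (-0.14 to 0.0077) and Ddx58 (-0.064 to 0.42) in the sgUba1 interaction, for Eif2ak2 (-0.0703 to 0.24) with TAK-243 and IFN-γ, for Dhx58 (-0.24 to 0.48) with IFN-γ in untreated cells, and for Dhx58 (-0.52 to 0.21) and Ddx58 (-0.51 to 0.054) in the TAK-243 interaction. Over all genes the number called ranged from 43 to 320 in B16-BL6, 10 to 692 in Myc-CaP sgUba1, 0 to 386 with OE, 1 to 299 with TAK-243 in tumors and 29 to 661 for the difference between models.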
